A study of Mus musculus with 35 samples.

Results

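The genes described are 40 genes that cells switch on when they sense interferon. They were chosen by name, as the mouse genes of 40 interferon-induced symbols, and were kept where at least 3 libraries held at least 10 normalized counts (reads divided by 1 size factor per library, as the authors deposited them). All 40 were among the 24462 features of the table, and 39 reached that level, among 12687 features that did. Ifi44 was the exception, with 149, 62.9 and 9.09 normalized counts in the 3 control libraries and at most 0.952 in any other, and the counts of members that follow are over the other 39.

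RNA was sequenced from bone marrow cells of transplanted mice (C57BL/6), sorted for GFP and CD45.2, in models of acute myeloid leukemia in which 1 of 3 fusion genes could be regulated: NUP98-DDX10, NUP98-JARID1A or NUP98-NSD1. For each fusion, 3 libraries came from mice given doxycycline at 4 mg/ml for 3 days, 3 from mice given it for 5 days, and 4 from untreated mice (1 titled day 3 and 3 titled day 5, joined here as 1 group). Another 3 libraries are titled controls and come from untreated mice; their genotype labels list NUP98/NSD1, NUP98/JARID1A and, differing by library, NUP98/DDX40, NUP98/DDX41 or NUP98/DDX42. What is meant by these labels is not given, and the transcripts read in the control libraries are given below. The series has 35 samples, of which 2 chromatin immunoprecipitation samples were not analysed here. The comparisons ask how the interferon response genes moved when doxycycline lowered the fusion transcript, whether the 3 fusions differed in this, and how the untreated cells of each fusion differed from the controls. The labels number libraries and not animals, and the p-values therefore describe the spread among libraries, which may be technical.

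Interferons bind receptors that act through Janus kinases. Type I interferon activates a complex of signal transducers and Irf9 that binds the interferon-stimulated response element (ISRE) in the promoters of its target genes. The products block viral replication, degrade RNA, tag proteins with the ubiquitin-like modifier Isg15, sense foreign nucleic acid and damp the signal again. In bone marrow, interferon also acts on blood stem cells and on myeloid cells that differentiate.

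What the members share in sequence was not used to choose them. RefSeq promoter windows of 300 bases (250 before the transcription start and 50 after it, GRCm38.p6) matched 30 of the 40 genes by identifier. The ISRE letters, GAAA followed by any 2 bases and GAAA again, searched on both strands (TTTC, 2 bases, TTTC on the other), lay in the windows of 15 of the 30, against 3.99% of the 27025 genes with a window and 3.94% of the 10158 such genes that passed the filter on low values. The letters of the interferon gamma-activated site, TTCNNNGAA (the same on both strands), lay in 6 of the 30, against 9.55% of all windows. Matches of the ISRE letters can overlap each other, as the 3 in Isg15 do. The 150 bases before the start are shown for 6 members with the letters, as examples of 5 role groups described later, each read 5′ to 3′ on the gene's own strand with the matching letters in capitals: Isg15 (chr4:156200819-156200968 on the minus strand), Ifit1 (chr19:34640739-34640888 on the plus strand), Oas1a (chr5:120907526-120907675 on the minus strand), Oas3 (chr5:120777660-120777809 on the minus strand), Rsad2 (chr12:26456453-26456602 on the minus strand) and Bst2 (chr8:71537473-71537622 on the minus strand).
Isg15: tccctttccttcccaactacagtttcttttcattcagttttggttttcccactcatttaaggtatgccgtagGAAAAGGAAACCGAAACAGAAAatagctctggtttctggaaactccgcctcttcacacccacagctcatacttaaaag
Ifit1: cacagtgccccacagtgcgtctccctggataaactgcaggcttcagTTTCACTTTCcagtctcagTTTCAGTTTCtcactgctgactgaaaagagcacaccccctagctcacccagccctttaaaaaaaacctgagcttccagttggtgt
Oas1a: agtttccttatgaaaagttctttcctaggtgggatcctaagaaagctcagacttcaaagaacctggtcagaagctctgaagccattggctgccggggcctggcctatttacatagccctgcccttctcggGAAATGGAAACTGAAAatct
Oas3: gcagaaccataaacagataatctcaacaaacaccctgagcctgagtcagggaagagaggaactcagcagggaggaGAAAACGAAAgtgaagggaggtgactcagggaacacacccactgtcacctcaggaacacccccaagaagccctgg
Rsad2: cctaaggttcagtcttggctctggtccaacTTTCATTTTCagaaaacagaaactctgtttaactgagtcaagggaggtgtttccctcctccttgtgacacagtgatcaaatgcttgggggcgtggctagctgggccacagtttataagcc
Bst2: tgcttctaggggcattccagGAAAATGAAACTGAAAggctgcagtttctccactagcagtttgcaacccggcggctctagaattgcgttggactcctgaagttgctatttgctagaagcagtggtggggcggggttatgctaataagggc
Isg15 had 3 overlapping matches, Ifit1, Oas1a and Bst2 had 2 each, and Oas3 and Rsad2 had 1. A match is a description of the letters only. The members lie on 15 chromosomes, so most are not neighbours: 6 are on chromosome 16, 5 on chromosome 5 (the 5 oligoadenylate synthetase genes) and 5 on chromosome 11. Of the 40, 7 overlap another protein-coding gene. The labels do not say if counting was strand-specific, so reads of Dtx3l and Parp9, which overlap each other, and of Eif2ak2, Ifi27l2a, Ifit1, Rtp4 and Stat2 may include some of their neighbours. With all annotated genes counted, 17 members overlap a neighbour. On the same strand Trex1 overlaps the long noncoding RNA gene Atrip-trex1, Eif2ak2 the pseudogene Gm6548 and Stat2 the coding gene Apof. Strand does not separate the reads of these pairs.

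Library depth ran from 12043487 to 28903870 gene reads. The fusion transcript averaged 4.98 and 6.30 normalized counts on days 3 and 5 of doxycycline in NUP98-DDX10, against 12450 in untreated cells, and was likewise far lower on doxycycline in NUP98-JARID1A (96.4 and 85.3, against 3225) and NUP98-NSD1 (49.1 and 46.5, against 54850). The control libraries held 0 normalized counts of the NUP98-DDX10 and NUP98-NSD1 transcripts, 2.52 to 72 of NUP98-JARID1A and 13.9 to 210.3 of eGFP, the green fluorescent protein, against 7445 to 14450, 9450 to 12510 and 15330 to 17730 of eGFP in untreated NUP98-DDX10, NUP98-JARID1A and NUP98-NSD1. The eGFP transcript was also far lower on doxycycline than in untreated cells of each fusion. Its means on days 3 and 5 were 3.53 and 3.15 in NUP98-DDX10, 338 and 323 in NUP98-JARID1A and 18.1 and 16.8 in NUP98-NSD1. The control mean was 79.5. All 5 blood cell markers were read in every group, with sums of 75850 to 183400 normalized counts. Sums of cell type markers moved with the groups. The markers of plasmacytoid dendritic cells, a cell type that makes interferon, summed in NUP98-DDX10 to 4138 to 4682 untreated, 2500 to 2955 on day 3 and 2005 to 2332 on day 5. In NUP98-JARID1A they summed to 4986 to 7325 untreated, 2584 to 3746 on day 3 and 2604 to 3084 on day 5, in NUP98-NSD1 to 4806 to 5743 untreated, 3163 to 3420 on day 3 and 2753 to 4190 on day 5, and in controls to 13860 to 18310. They were thus lower on both days in each fusion, with no overlap, as were stromal and endothelial markers, which summed to 3608 to 4228 untreated, 1777 to 2310 on day 3 and 1084 to 1311 on day 5 in NUP98-DDX10, 2706 to 2938 untreated, 1161 to 1535 on day 3 and 635 to 703 on day 5 in NUP98-JARID1A, and 3141 to 3540 untreated, 1526 to 1761 on day 3 and 676 to 922 on day 5 in NUP98-NSD1. Monocyte and macrophage markers summed to 56730 to 60780 untreated, 60960 to 65910 on day 3 and 58370 to 60630 on day 5 in NUP98-DDX10, 36310 to 52100 untreated, 56470 to 59370 on day 3 and 83880 to 93370 on day 5 in NUP98-JARID1A, and 51080 to 58080 untreated, 56770 to 62960 on day 3 and 83830 to 95640 on day 5 in NUP98-NSD1. Mature neutrophil markers summed to 33190 to 41140 untreated, 17090 to 32620 on day 3 and 32450 to 60010 on day 5 in NUP98-DDX10, 110800 to 153500 untreated, 207500 to 310400 on day 3 and 394600 to 891000 on day 5 in NUP98-JARID1A, and 21050 to 45550 untreated, 39950 to 102300 on day 3 and 70400 to 168400 on day 5 in NUP98-NSD1. T and NK cell markers summed in NUP98-JARID1A to 665 to 952 untreated, 34.3 to 62.1 on day 3 and 15.1 to 23.4 on day 5, and to at most 33.4 in any library of the other fusions. Of the 9 such markers in the table, 4 had a read in untreated NUP98-JARID1A, 4 on day 3 and 6 on day 5, against 9 in controls. The untreated sum thus rested on 4 genes. The part of these cell types in the results below was not tested, and in bulk RNA fewer cells of a type and less RNA per cell cannot be told apart. Nor can marker reads from the leukemia cells themselves be told apart from those of other cells.

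The library furthest from its group in the members was replicate 1 of NUP98-NSD1 on day 5. It was the lowest of its 3 libraries for 39 of 39 members, while 41.0% of all features were lowest there. The mean of replicates 2 and 3 was a median of 2.70 times its value over the 39 members, and at least 2 times for 26 of them. It lay below every untreated NUP98-NSD1 library for 33 members and above them for 2. Its depth was 14752618 gene reads against 17696056 and 16594115 in replicates 2 and 3, its fusion transcript 58.1 normalized counts against 40.9 and 40.3, and its plasmacytoid dendritic cell sum 2753 against 4190 and 3169. Its neutrophil sum was 70400 against 168400 and 109700. Calls of members in NUP98-NSD1 on day 5 are therefore given with and without it. Replicate 1 was singled out by the same member values that are then tested. Values and p-values without it show how far the calls rest on 1 library, and are not an independent test. Replicate 3 of NUP98-NSD1 on day 3 was also the lowest of its group for 37 of 39 members, against 30.6% of all features. Untreated NUP98-NSD1 replicate 1 was lowest for 30 (30.1%), NUP98-JARID1A day 3 replicate 1 for 27 (38.5%) and untreated NUP98-DDX10 replicate 1 for 23 (17.3%). In NUP98-DDX10 on day 5 the 3 libraries were lowest for 14, 10 and 15. Members thus moved together within many libraries, and counts over members are not counts of independent observations.

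**Figure D1:**
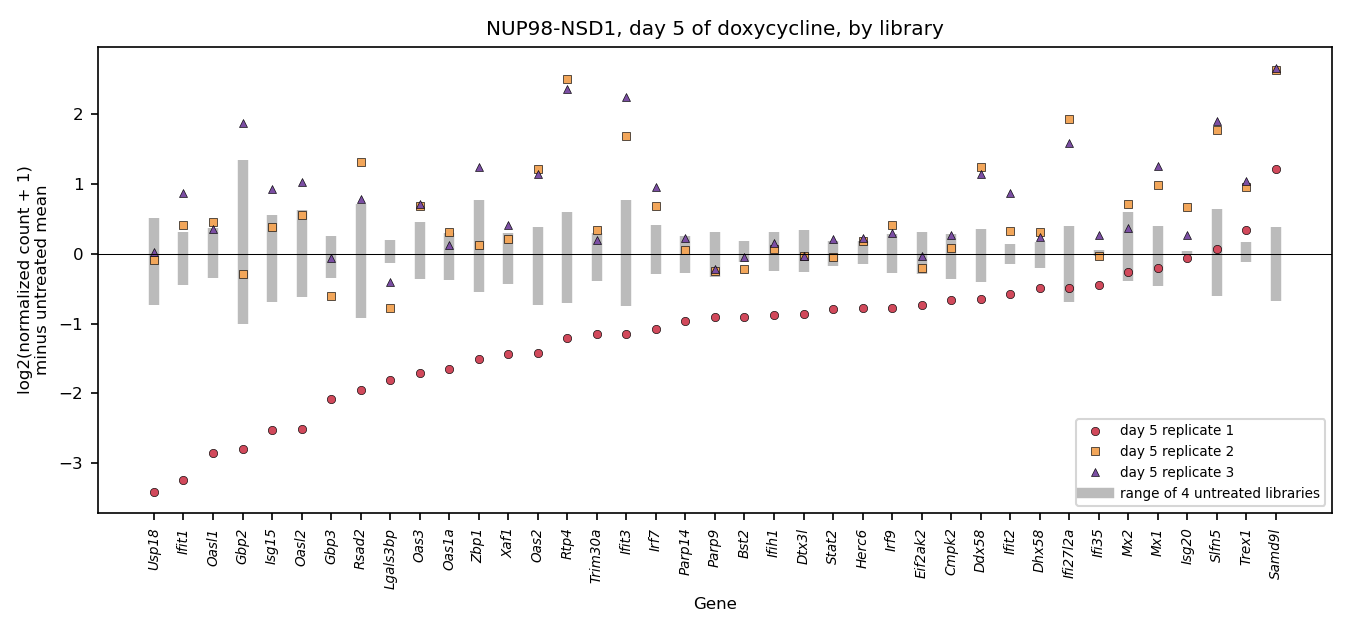
The 3 NUP98-NSD1 day 5 libraries for each of the 39 members, as log2 of (normalized count + 1) minus the mean of the 4 untreated NUP98-NSD1 libraries; the grey bar spans the untreated libraries. Replicate 1 is the lowest point in every row, and replicates 2 and 3 lie mostly within or above the bar.

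The levels over all 10 groups had a plain order at the ends. The group mean was highest in the controls for 30 of 39 members and lowest in a NUP98-DDX10 doxycycline group for 30 of 39. These shares were not computed over all features, so whether the order is particular to the members is not shown. Trex1 was the only member with its lowest mean in the controls.

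**Figure D2:**
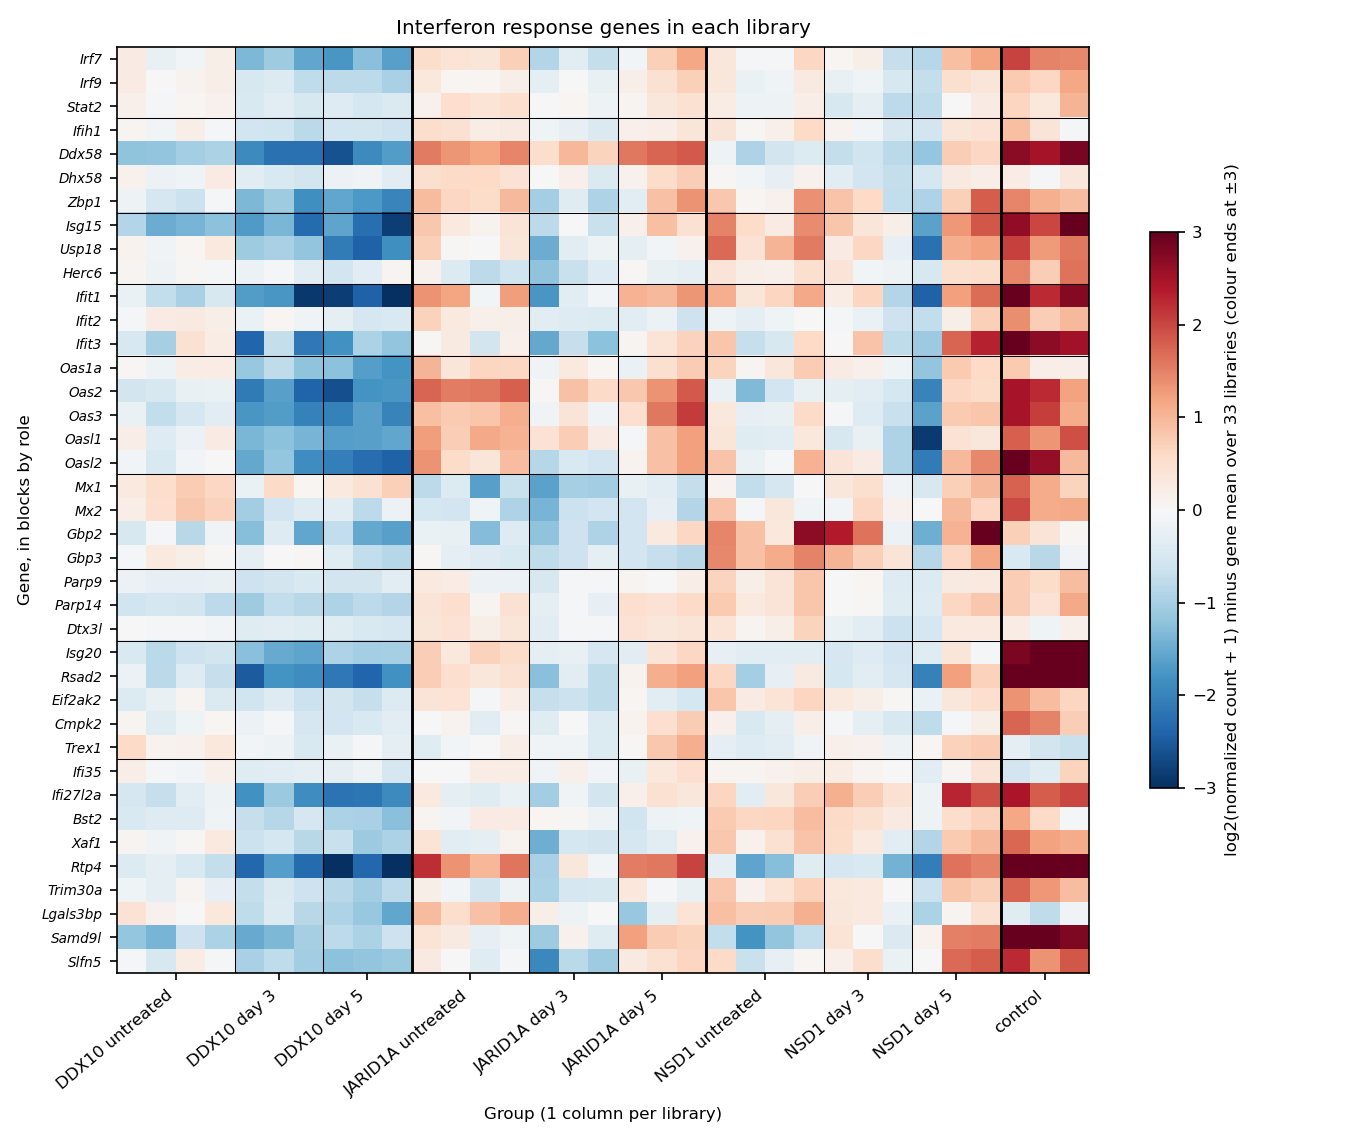
Expression of the 39 members (rows, in blocks by role) in the 33 libraries (columns, by group), as log2 of (normalized count + 1) minus the gene's mean over the libraries; colours end at ±3. The controls are the warmest columns, NUP98-DDX10 on doxycycline the coldest, and replicate 1 of NUP98-NSD1 on day 5 is colder than its neighbours.

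After 3 days of doxycycline most members had lower values in all 3 fusions, and few passed the test singly. The log2 fold change against untreated cells was below 0 for 39 of 39 members in NUP98-DDX10, with a median of -0.71, for 39 in NUP98-JARID1A, with a median of -0.62, and for 32 in NUP98-NSD1, with a median of -0.36. The medians over all features were -0.01, -0.02 and 0.01. In limma's moderated test on log2 of (normalized count + 1), with p-values adjusted over all 12687 features by the Benjamini-Hochberg method and a threshold of 0.05, 3 members fell in NUP98-DDX10 (Irf7, Mx2 and Oas2) and none rose, where 0.962% of all features fell and 0.134% rose. In NUP98-JARID1A 11 fell and none rose, where 7.62% of all features fell and 8.1% rose. In NUP98-NSD1 4 fell (Dtx3l, Parp14, Parp9 and Stat2) and Samd9l rose, where 4.59% fell and 4.55% rose. Of the 39, 22 passed the test in no fusion on day 3.

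The libraries themselves separated more often than the test called. In NUP98-DDX10 every day 3 library lay below every untreated library for 28 of 39 members, against 11.9% of all features; in NUP98-JARID1A this held for 26, against 13.6%, and in NUP98-NSD1 for 8, against 17.6%, while 1 member, Samd9l, lay wholly above, against 19.7%. The NUP98-DDX10 count of 3 calls depended on the fit: with only that fusion's own libraries in it, 25 members fell, none did when replicate 1, 2 or 3 of NUP98-DDX10 on day 3 or replicate 1, 2 or 3 of untreated NUP98-DDX10 was left out, and 1 did without the untreated library titled day 3. Without replicate 1 of NUP98-NSD1 on day 5, 13 fell; without replicate 2 of it, 5; and without control replicate 3, 9. The NUP98-JARID1A count was 4, 7 and 3 without its day 3 replicates 1, 2 and 3, 6 without its untreated library titled day 3, and 21 without replicate 1 of NUP98-NSD1 on day 5. The NUP98-NSD1 count of 5 became 2 without its day 3 replicate 1 or 3, its untreated replicate 3 or its untreated library titled day 3. Averaged over the 3 fusions, 27 of 39 members fell on day 3 and none rose, with a median of -0.54, where 9.91% of all features fell and 8.67% rose; leaving out any 1 library gave 22 to 31.

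On day 5 in NUP98-DDX10 22 of 39 members fell and none rose, where 8.64% of all features fell and 6.49% rose; the median log2 fold change was -0.97, against 0.00 over all features, and only Samd9l lay above 0. All 3 transcription factors and all 5 oligoadenylate synthetases were among the 22. In NUP98-JARID1A 3 members fell (Eif2ak2, Ifit2 and Lgals3bp) and 2 rose (Samd9l and Trex1), where 21.2% and 20.1% of all features did, and the median was 0.09. In NUP98-NSD1 3 fell (Gbp3, Lgals3bp and Parp9) and 4 rose (Ifi27l2a, Samd9l, Slfn5 and Trex1), where 11.9% and 13.5% did, and the median was -0.11. The shares of members called in NUP98-JARID1A and NUP98-NSD1 were below the background of their comparisons. Averaged over the fusions, 14 members fell and 2 rose on day 5, where 23.4% and 22.6% of all features did, and 7 fell and 4 rose without replicate 1 of NUP98-NSD1 on day 5.

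Without replicate 1 of NUP98-NSD1 on day 5, 11 members rose in that fusion and none fell, where 12.4% of all features rose and 10.2% fell, and the median over the 39 was 0.47. That library was set aside on the values of these same members, so these calls are not an independent test. The 11 were Ddx58, Ifi27l2a, Ifit2, Ifit3, Irf7, Mx1, Oas2, Rtp4, Samd9l, Slfn5 and Trex1; the 3 members that fell with it in the fit (Gbp3, Lgals3bp and Parp9) no longer passed the test. In NUP98-DDX10 the day 5 libraries lay wholly below the untreated ones for 31 of 39 members, against 19.4% of all features; in NUP98-JARID1A 4 lay wholly below and 2 wholly above, against 18.4% and 19.3%, and in NUP98-NSD1 1 and 2, against 19.7% and 21.8%. Leaving out 1 library gave 10 to 25 calls in NUP98-DDX10, with 10, 13 and 11 without its day 5 replicates 1, 2 and 3 and 14 without its untreated library titled day 3, and 8 of the 22 calls held whichever of the 33 libraries was left out. In NUP98-JARID1A the range was 1 to 7, with 3 and 1 without its day 5 replicates 2 and 3.

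The difference between the fusions was tested directly. On day 3 it passed for 1 of 39 members, Samd9l (adjusted p = 0.04, limma F-test over the 3 fusions), where 7.08% of all features passed. That call was lost when 1 library was left out that was day 3 replicate 1 or 2 or untreated replicate 2 or 3 of NUP98-DDX10, day 3 replicate 1 or 3, untreated replicate 1 or the untreated library titled day 3 of NUP98-JARID1A, or day 3 replicate 1 or 2 or untreated replicate 1 or 2 of NUP98-NSD1. The count was 2 without day 5 replicate 1 of NUP98-JARID1A and 5 without day 5 replicate 1 of NUP98-NSD1. On day 5 it passed for 12: Ifi27l2a, Trex1, Slfn5, Rtp4, Irf9, Samd9l, Irf7, Ddx58, Oas3, Oas1a, Oas2 and Ifit2, with adjusted p from 0.000617 to 0.0461, where 26.0% of all features passed. The share of members, 12 of 39, was thus close to that background. By direction, the NUP98-JARID1A response lay above the NUP98-DDX10 response for 11 members and below it for none (background 11.9% above and 11.2% below), and the NUP98-NSD1 response lay above it for 9 and below it for none (background 5.5% and 2.82%). Between NUP98-JARID1A and NUP98-NSD1 the test passed for 2, Ifit2 and Samd9l, both lower in NUP98-JARID1A (background 5.61% above and 6.0% below). Of the 39 members, 35 had their lowest day 5 log2 fold change in NUP98-DDX10, a share that was not computed over all features. The comparisons of NUP98-JARID1A and of NUP98-NSD1 with NUP98-DDX10 share the NUP98-DDX10 libraries. Leaving out 1 other library gave as few as 8 members for the F-test (without replicate 3 of untreated NUP98-DDX10), 7 for NUP98-JARID1A against NUP98-DDX10 (without day 5 replicate 3 of NUP98-JARID1A) and 5 for NUP98-NSD1 against NUP98-DDX10 (without day 5 replicate 2 or 3 of NUP98-NSD1). For NUP98-JARID1A against NUP98-NSD1 leaving out any 1 library gave 0 to 7, the most without replicate 1 of NUP98-NSD1 on day 5. Without replicate 1 of NUP98-NSD1 on day 5 the F-test passed for 22 members, where 27.3% of all features did, the NUP98-NSD1 response lay above the NUP98-DDX10 response for 23 (background 7.56%), and the NUP98-JARID1A response lay above it for 17 (background 12.4%). The 10 members that the F-test called only without that library were Ifit1, Ifit3, Mx2, Oasl1, Oasl2, Rsad2, Trim30a, Usp18, Xaf1 and Zbp1 (adjusted p from 0.00055 to 0.0253).

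**Figure D3:**
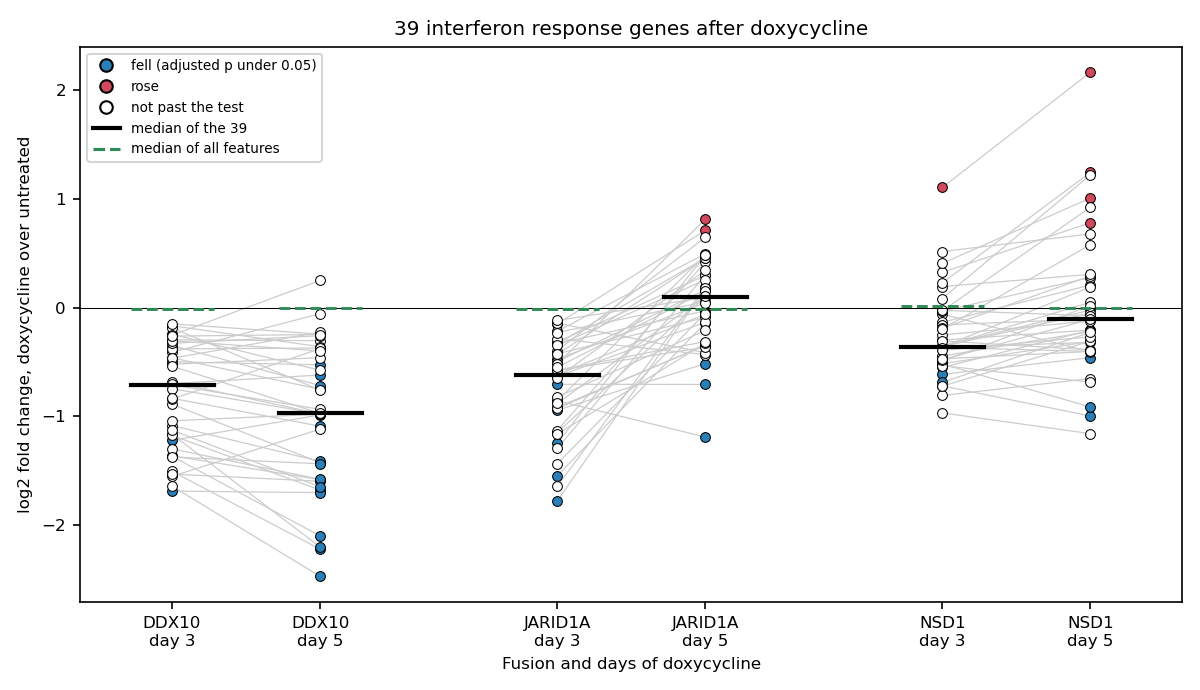
Log2 fold change of each of the 39 members on day 3 and day 5 of doxycycline against untreated cells, by fusion. Lines join a gene; blue points fell, red points rose, white points did not pass the limma test; the black bar is the members' median and the green dashed line the median of all features. The NUP98-DDX10 points lie below 0 on both days apart from Samd9l on day 5, while the NUP98-JARID1A median is -0.62 on day 3 and 0.09 on day 5.

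Between day 3 and day 5, 15 members rose in NUP98-JARID1A and none passed the test in NUP98-DDX10. In NUP98-JARID1A none of the 39 was lower on day 5 than on day 3 in that test, and 15 were higher, where 10.4% and 9.54% of all features were, and the day 5 libraries lay wholly above the day 3 libraries for 27, against 17.3% of all features. The changes were largest for Rtp4 (log2 1.95 ± 0.60, SE; adjusted p = 0.0216), Ifit1 (1.83 ± 0.66; adjusted p = 0.049) and Slfn5 (1.73 ± 0.35; adjusted p = 0.000839; limma, n = 3 against 3). The NUP98-JARID1A count was 3 and 6 without its day 3 replicates 1 and 3, 7 and 3 without its day 5 replicates 2 and 3, and 20 without replicate 1 of NUP98-NSD1 on day 5. In NUP98-NSD1 Samd9l alone rose and none fell (background 5.66% and 4.95%), a call lost without day 3 replicate 2 or 3, day 5 replicate 2 or 3 or untreated replicate 2 of that fusion; 2 members passed without day 3 or day 5 replicate 1 of NUP98-JARID1A, 3 without control replicate 3, and without day 5 replicate 1 of NUP98-NSD1 17 members rose (background 6.17%). In NUP98-DDX10 no member passed in limma, where 0.497% of all features fell and 0.434% rose, and none did in edgeR or DESeq2. No member had an unadjusted p under 0.05 in limma, where 11.7% of all features did. With only the NUP98-DDX10 libraries in the fit 1 member passed in NUP98-DDX10. Averaged over the fusions 9 members were higher on day 5 and none lower (background 14.3% and 13.4%). The test passed for 22 without replicate 1 of NUP98-NSD1 on day 5 (background 14.5% higher and 13.3% lower). The test of whether the step from day 3 to day 5 differed between fusions passed for no member in limma, against 1.84% of all features. At an unadjusted p under 0.05 it held for 10 of the 39, against 14.7% of all features; edgeR gave 0 and DESeq2 2, limma gave 1 without day 3 replicate 2 or day 5 replicate 1 of NUP98-JARID1A or control replicate 3, and without replicate 1 of NUP98-NSD1 on day 5 it gave 11 (background 3.83%).

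All 3 transcription factors fell in NUP98-DDX10 on day 5. In the values by library that follow, the 4 untreated values start with the library titled day 3; the unit is normalized counts throughout, and fold changes are log2 of (normalized count + 1) with the standard error (SE) of limma's fit, on day 3 or 5 of doxycycline against untreated cells of the same fusion, with 3 libraries against 4. Irf7 is the factor that drives the amplification of type I interferon genes. Irf7 in NUP98-DDX10 had 859.7, 627, 691 and 826 normalized counts untreated, 286, 345 and 245 on day 3 and 215, 306 and 232 on day 5. Irf7 in NUP98-JARID1A had 1045, 964, 936 and 1190 normalized counts untreated, 394, 574 and 441 on day 3 and 689, 1195 and 1634 on day 5. Irf7 in NUP98-NSD1 had 926, 705, 692 and 1120 normalized counts untreated, 762, 822 and 452 on day 3 and 399, 1353 and 1644 on day 5. In NUP98-DDX10 both days lay below every untreated library, a change of -1.36 ± 0.33 on day 3 (adjusted p = 0.0336, limma) and -1.58 ± 0.33 on day 5 (adjusted p = 0.00139). In NUP98-JARID1A only day 3 lay below the untreated libraries (-1.15 ± 0.33, adjusted p = 0.0154), and day 5 was higher than day 3 by 1.25 ± 0.35 (adjusted p = 0.0116). In NUP98-NSD1 the day 5 value was 0.19 ± 0.33, which did not pass, and 0.82 ± 0.27 without replicate 1 (adjusted p = 0.0282). The responses of the fusions differed on day 5 (adjusted p = 0.00683).

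Irf9 is the subunit of the type I interferon complex that binds DNA. Irf9 in NUP98-DDX10 had 1336, 1136, 1200 and 1275 untreated, 811, 846 and 663 on day 3 and 656, 655 and 572 on day 5. Irf9 in NUP98-JARID1A had 1391, 1178, 1166 and 1269 untreated, 921, 1139 and 959 on day 3 and 1260, 1553 and 1840 on day 5. Irf9 in NUP98-NSD1 had 1431, 978, 1033 and 1350 untreated, 961, 1031 and 799 on day 3 and 689, 1574 and 1454 on day 5. Day 5 lay well below the untreated libraries in NUP98-DDX10, spanned them in NUP98-NSD1, and reached above them with 2 of 3 libraries in NUP98-JARID1A. The day 5 change was -0.98 ± 0.20 in NUP98-DDX10 (adjusted p = 0.00111, limma), and NUP98-JARID1A and NUP98-NSD1 did not pass at 0.30 ± 0.20 and -0.02 ± 0.20; the responses differed (adjusted p = 0.00291). Stat2 is its partner in that complex. Stat2 in NUP98-DDX10 had 1007, 876, 950.3 and 985 untreated, 657, 719 and 649.5 on day 3 and 692, 627 and 668 on day 5. Stat2 in NUP98-JARID1A had 995, 1295, 1203 and 1293 untreated, 902, 945 and 817 on day 3 and 961, 1156 and 1255 on day 5. Stat2 in NUP98-NSD1 had 1051, 816, 816 and 1046 untreated, 649.5, 739.8 and 525 on day 3 and 535, 899 and 1068 on day 5. It fell in NUP98-DDX10 on day 5 (-0.53 ± 0.17, adjusted p = 0.0383) and in NUP98-NSD1 on day 3 (-0.55 ± 0.17, adjusted p = 0.043), with no overlap between the libraries in either case. The Stat2 responses did not pass the test of a difference on day 5 (adjusted p = 0.341).

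Of the 4 sensors of foreign nucleic acid, 3 fell in NUP98-DDX10 on day 5 (Ddx58, Ifih1 and Zbp1) and 3 in NUP98-JARID1A on day 3 (Dhx58, Ifih1 and Zbp1), and none passed in NUP98-NSD1 on either day. Of all features, 8.64% fell in NUP98-DDX10 on day 5 and 7.62% in NUP98-JARID1A on day 3. Ifih1, which encodes MDA5, detects long double-stranded RNA. Ifih1 in NUP98-DDX10 had 563, 504, 608 and 521 untreated, 358, 353 and 303 on day 3 and 356, 365 and 348 on day 5. Ifih1 in NUP98-JARID1A had 767, 732, 622 and 640.5 untreated, 489, 450.1 and 395 on day 3 and 593, 608 and 683 on day 5. Ifih1 in NUP98-NSD1 had 696, 548, 590.4 and 811 untreated, 577, 502 and 381 on day 3 and 355, 687 and 726 on day 5. Both doxycycline groups lay below the untreated libraries in NUP98-DDX10, and in NUP98-JARID1A day 3 did while day 5 overlapped them. The changes that passed were -0.62 ± 0.20 on day 5 in NUP98-DDX10 (adjusted p = 0.0325, limma) and -0.63 ± 0.20 on day 3 in NUP98-JARID1A (adjusted p = 0.0277).

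Zbp1 binds nucleic acid in the Z conformation and can start programmed cell death. Zbp1 in NUP98-DDX10 had 469.6, 369.8, 336 and 500.5 untreated, 204, 249.6 and 145 on day 3 and 178, 158 and 131 on day 5. Zbp1 in NUP98-JARID1A had 1014, 808, 767 and 1021 untreated, 258, 403 and 275 on day 3 and 416, 966 and 1333 on day 5. Zbp1 in NUP98-NSD1 had 922, 539.7, 571 and 1342 untreated, 939, 791 and 310.0 on day 3 and 276, 854 and 1855 on day 5. In NUP98-JARID1A the 3 day 3 libraries were far below the untreated ones and the day 5 libraries ran from below to above them. Zbp1 changed by -1.55 ± 0.44 on day 3 in NUP98-JARID1A (adjusted p = 0.0168, limma) and by -1.41 ± 0.44 on day 5 in NUP98-DDX10 (adjusted p = 0.0302). Ddx58, which encodes the RNA helicase RIG-I, averaged 76.8 ± 23.9 normalized counts on day 5 and 148 ± 13.2 in untreated NUP98-DDX10 (SD, n = 3 and 4), and its response differed between the fusions (adjusted p = 0.00799): -0.98 ± 0.28 for NUP98-DDX10, 0.34 ± 0.28 for NUP98-JARID1A and 0.58 ± 0.28 for NUP98-NSD1, of which NUP98-DDX10 passed. Without replicate 1 Ddx58 rose in NUP98-NSD1 (1.19 ± 0.20, adjusted p = 7e-05). Dhx58 (LGP2), a regulator of the other helicase sensors, fell in NUP98-JARID1A on day 3 (-0.62 ± 0.17, adjusted p = 0.0127).

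The Isg15 system was little called. Isg15 is a ubiquitin-like protein that is joined to other proteins. Isg15 in NUP98-DDX10 had 18.4, 11.6, 12.6 and 14.2 untreated, 10.1, 12.8 and 6.25 on day 3 and 11, 6.45 and 4.01 on day 5. Isg15 in NUP98-JARID1A had 61.7, 42.4, 37.6 and 45.5 untreated, 19.6, 35.3 and 21.3 on day 3 and 38.9, 65.3 and 47.9 on day 5. Isg15 in NUP98-NSD1 had 98.4, 51.6, 41.1 and 94.4 untreated, 62.2, 44.8 and 39.2 on day 3 and 10.8, 87.5 and 128 on day 5. It was read at low levels, with as few as 4.01 normalized counts, and passed the test in no fusion on either day; its day 5 value was -0.97 ± 0.54 in NUP98-DDX10 (adjusted p = 0.238, limma), although the day 5 libraries lay below all 4 untreated ones. Usp18 removes Isg15 from proteins and damps signalling at the interferon receptor. Usp18 in NUP98-DDX10 had 134, 116, 130.1 and 152 untreated, 59.3, 62.7 and 54.1 on day 3 and 28.5, 22.6 and 34 on day 5. Usp18 in NUP98-JARID1A had 205, 128, 123 and 162 untreated, 44.2, 99.3 and 112 on day 3 and 103, 119 and 137 on day 5. Usp18 in NUP98-NSD1 had 406, 169.9, 253 and 372 untreated, 148, 194 and 105 on day 3 and 25.8, 266 and 288 on day 5. In NUP98-DDX10 both days were below every untreated library, and the day 5 change of -2.20 ± 0.49 passed (adjusted p = 0.00281). In NUP98-NSD1 replicate 1 on day 5 lay far below the untreated libraries, and the group value of -1.16 ± 0.49 did not pass (adjusted p = 0.0856; -0.03 ± 0.33 without it). Herc6 is the ligase that attaches Isg15 in mice. Herc6 in NUP98-DDX10 had 164, 139.5, 158 and 149 untreated, 136, 152 and 125 on day 3 and 104, 125 and 163 on day 5. Herc6 in NUP98-JARID1A had 169.8, 116, 89.7 and 103 untreated, 66.3, 96.5 and 118 on day 3 and 157, 133 and 128 on day 5. Herc6 in NUP98-NSD1 had 204, 175, 173 and 216 untreated, 204, 145 and 139 on day 3 and 111, 217 and 224 on day 5. Its libraries overlapped the untreated ones in every fusion and on both days, and no value passed.

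The tetratricopeptide proteins bind viral RNA and stall its translation. Ifit1 in NUP98-DDX10 had 38.8, 26.8, 22.3 and 32.2 untreated, 13.4, 12.8 and 5.2 on day 3 and 5.49, 7.53 and 4.01 on day 5. Ifit1 in NUP98-JARID1A had 115, 103, 42.8 and 108 untreated, 12.8, 35.3 and 42.6 on day 3 and 94.2, 89.4 and 114 on day 5. Ifit1 in NUP98-NSD1 had 96.7, 58.2, 71.5 and 99.4 untreated, 53.1, 70.8 and 24.1 on day 3 and 7.54, 107 and 146 on day 5. Ifit1 in NUP98-DDX10 was below every untreated library on both days, with a day 5 change of -2.22 ± 0.62 (adjusted p = 0.0145, limma). In NUP98-JARID1A it was low on day 3 and back among the untreated libraries on day 5, a rise of 1.83 ± 0.66 between the days (adjusted p = 0.049). Ifit2 in NUP98-DDX10 had 216, 259, 264 and 247 untreated, 191, 228 and 204 on day 3 and 181, 155 and 159 on day 5. Ifit2 in NUP98-JARID1A had 359, 269, 245 and 249 untreated, 174, 168 and 167 on day 3 and 174, 194 and 144 on day 5. Ifit2 in NUP98-NSD1 had 198, 178, 200.1 and 218 untreated, 216, 191 and 142 on day 3 and 132, 249 and 364 on day 5. Ifit2 differed from Ifit1 in that NUP98-JARID1A stayed below the untreated libraries on both days, at -0.70 ± 0.22 (adjusted p = 0.025) and -0.71 ± 0.22 (adjusted p = 0.00973); that the 2 genes differ was not tested. In NUP98-NSD1 2 of its 3 day 5 libraries were above the untreated range, and the day 5 responses of the fusions differed (adjusted p = 0.0461). Without replicate 1 Ifit2 rose in NUP98-NSD1 by 0.60 ± 0.19 (adjusted p = 0.0206), and so did Ifit3 by 1.96 ± 0.51 (adjusted p = 0.00577). With it, Ifit3 passed in no fusion.

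The oligoadenylate synthetase family includes enzymes that make the short adenylates that switch on RNase L. All 5 genes of the family among the members fell in NUP98-DDX10 on day 5, with a median of -1.65, where 8.64% of all features fell. None of the 5 passed on day 5 in NUP98-JARID1A or NUP98-NSD1, where the medians were -0.31 and -0.31. Without replicate 1 the NUP98-NSD1 median was 0.70. Oasl2 is a synthetase-like protein. Oasl2 in NUP98-DDX10 had 501, 383, 504 and 533 untreated, 181, 238 and 145 on day 3 and 127, 108 and 98.2 on day 5. Oasl2 in NUP98-JARID1A had 1340, 778, 677 and 1012 untreated, 289.9, 382 and 353 on day 3 and 572, 974 and 1249 on day 5. Oasl2 in NUP98-NSD1 had 952, 462, 519 and 1092 untreated, 696, 623 and 278 on day 3 and 123, 1042 and 1437 on day 5. Every doxycycline library of NUP98-DDX10 was below every untreated one, and the day 5 change was -2.10 ± 0.55 (adjusted p = 0.00956, limma), while NUP98-JARID1A was low on day 3 and overlapped the untreated range on day 5. Oas3, in human cells, is the main activator of RNase L in the family. Oas3 in NUP98-DDX10 had 427, 294, 346 and 393 untreated, 147, 153 and 119.7 on day 3 and 121, 158 and 123 on day 5. Oas3 in NUP98-JARID1A had 928, 852, 882 and 1056 untreated, 456, 641 and 455 on day 3 and 698, 1483 and 2102 on day 5. Oas3 in NUP98-NSD1 had 619, 415, 426 and 730.0 untreated, 471, 379 and 311 on day 3 and 162, 851 and 874 on day 5. The NUP98-DDX10 change was -1.44 ± 0.40 on day 5 (adjusted p = 0.0147), and in NUP98-JARID1A 2 day 5 libraries exceeded every untreated one. The day 5 responses differed between fusions for Oas3 (adjusted p = 0.0316), Oas1a (0.0319) and Oas2 (0.0341). Oas1a changed by -1.65 ± 0.30 in NUP98-DDX10 (adjusted p = 0.00046), Oas2 by -1.70 ± 0.42 (adjusted p = 0.00663), and Oasl1, which in mice holds back Irf7 translation, by -1.58 ± 0.46 (adjusted p = 0.0188). Oas2 rose in NUP98-NSD1 without replicate 1 (1.17 ± 0.33, adjusted p = 0.011).

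**Figure D4:**
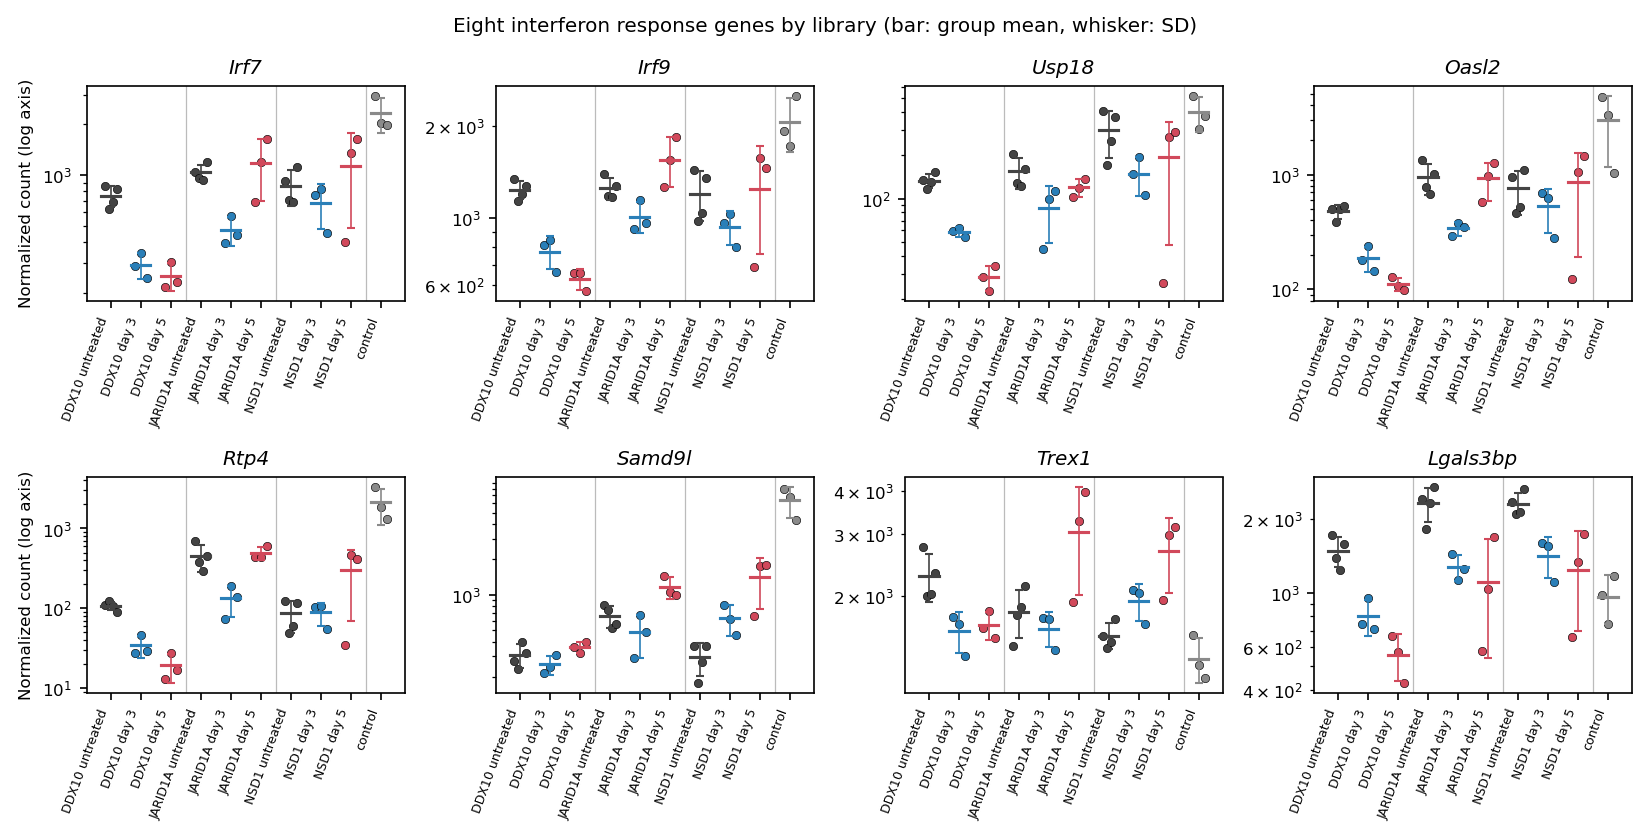
Normalized counts of 8 members in every library (log axis), by group; bars are means and whiskers SD. In NUP98-DDX10 the doxycycline libraries lie below the untreated ones for all but Samd9l. In NUP98-NSD1 on day 5 replicate 1 is the low point in each panel.

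Of the 4 GTPases, 1 fell in NUP98-DDX10 on each day (Mx2), none passed in NUP98-JARID1A, and 1 fell in NUP98-NSD1 on day 5 (Gbp3). Of all features, 0.962% and 8.64% fell in NUP98-DDX10 on days 3 and 5, and 11.9% in NUP98-NSD1 on day 5. Mx1 and Mx2 are dynamin-like GTPases known for blocking viruses, and the reference annotation of this strain lists both as transcribed pseudogenes. Mx2 changed by -1.22 ± 0.30 on day 3 (adjusted p = 0.0375, limma) and -0.99 ± 0.30 on day 5 (adjusted p = 0.0255) in NUP98-DDX10. Mx1 passed in no fusion with all libraries, and rose in NUP98-NSD1 without replicate 1 (1.12 ± 0.31, adjusted p = 0.0103). Gbp2 and Gbp3 belong to the guanylate-binding proteins that attack vacuoles holding pathogens. Gbp3 in NUP98-DDX10 had 559.5, 706, 658 and 592 untreated, 481, 584 and 593 on day 3 and 450.1, 349.6 and 322 on day 5. Gbp3 in NUP98-JARID1A had 598, 484, 440.3 and 419 untreated, 344, 376 and 472 on day 3 and 387, 359.7 and 325 on day 5. Gbp3 in NUP98-NSD1 had 1575, 1069, 1247 and 1619 untreated, 1178, 958 and 754 on day 3 and 321, 891 and 1306 on day 5. Untreated NUP98-NSD1 cells held the most Gbp3, and the day 5 change of -0.91 ± 0.28 in that fusion (adjusted p = 0.0149) rested on replicate 1, without which the value was -0.33 ± 0.21 (adjusted p = 0.286). Gbp2 in NUP98-DDX10 had 195, 262, 152 and 253 untreated, 112, 206 and 91.6 on day 3 and 161, 93.6 and 87.1 on day 5. Gbp2 in NUP98-JARID1A had 237, 234, 109.6 and 207 untreated, 116, 176 and 142 on day 3 and 183, 335 and 420.0 on day 5. Gbp2 in NUP98-NSD1 had 749, 503, 341 and 1744 untreated, 1409, 841 and 242 on day 3 and 98, 563 and 2526 on day 5. Gbp2 varied widely between libraries of 1 group, with NUP98-NSD1 values on day 5 from 98.0 to 2526, and passed in no fusion.

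Dtx3l, Parp9 and Parp14, of the ADP-ribosyl and ubiquitin pathway, all fell in NUP98-NSD1 on day 3, where 4.59% of all features fell. None of them passed in NUP98-DDX10 on either day. That the fusions differ was not shown for any of the 3 on day 3 (adjusted p = 0.43 for Dtx3l, 0.568 for Parp14 and 0.529 for Parp9, limma F-test). Dtx3l is a ubiquitin ligase that works with Parp9, and the 2 genes overlap in the annotation. Dtx3l in NUP98-DDX10 had 1513, 1487, 1473 and 1438 untreated, 1185, 1215 and 1188 on day 3 and 1188, 1108 and 1071 on day 5. Dtx3l in NUP98-JARID1A had 1965, 2068, 1715 and 1948 untreated, 1202, 1464 and 1499 on day 3 and 2045, 1916 and 1981 on day 5. Dtx3l in NUP98-NSD1 had 2019, 1607, 1735 and 2431 untreated, 1326, 1228 and 971 on day 3 and 1059, 1882 and 1880 on day 5. Dtx3l changed on day 3 by -0.72 ± 0.15 in NUP98-NSD1 (adjusted p = 0.00244) and -0.47 ± 0.15 in NUP98-JARID1A (adjusted p = 0.0316), with no overlap between libraries in either. Parp14 is a mono-ADP-ribosyltransferase. Parp14 in NUP98-DDX10 had 676, 716, 709 and 597 untreated, 494, 620.3 and 576 on day 3 and 543, 596 and 562 on day 5. Parp14 in NUP98-JARID1A had 1359, 1457, 1099 and 1409 untreated, 853, 994 and 871 on day 3 and 1473, 1399 and 1533 on day 5. Parp14 in NUP98-NSD1 had 1778, 1266, 1340 and 1824 untreated, 1018, 1058 and 799 on day 3 and 784, 1589 and 1799 on day 5. Day 3 was below every untreated library in NUP98-JARID1A and NUP98-NSD1, and only NUP98-NSD1 passed (-0.69 ± 0.19, adjusted p = 0.024). Parp9 fell in NUP98-NSD1 on both days (-0.61 ± 0.17, adjusted p = 0.0194, and -0.46 ± 0.17, adjusted p = 0.0432); on day 5 it was -0.23 ± 0.17 without replicate 1 and did not pass (adjusted p = 0.361).

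The nucleotide and nuclease enzymes did not share 1 direction. Trex1 is the exonuclease that clears DNA from the cytosol. Trex1 in NUP98-DDX10 had 2766, 2003, 2019 and 2326 untreated, 1742, 1661 and 1348 on day 3 and 1619, 1809 and 1509 on day 5. Trex1 in NUP98-JARID1A had 1436, 1763, 1863 and 2129 untreated, 1727, 1712 and 1395 on day 3 and 1914, 3266 and 3961 on day 5. Trex1 in NUP98-NSD1 had 1532, 1418, 1476 and 1719 untreated, 2077, 2043 and 1662 on day 3 and 1943, 2979 and 3154 on day 5. On day 5 every NUP98-NSD1 library and 2 of 3 NUP98-JARID1A libraries lay above all of their untreated libraries, and every NUP98-DDX10 library lay below its own. Trex1 rose by 0.71 ± 0.19 in NUP98-JARID1A (adjusted p = 0.00336, limma) and 0.78 ± 0.19 in NUP98-NSD1 (adjusted p = 0.00267, and 0.000455 without replicate 1), and was -0.46 ± 0.19 in NUP98-DDX10, which did not pass (adjusted p = 0.101). The responses differed (adjusted p = 0.00123). Eif2ak2 encodes PKR, the kinase that stops translation on double-stranded RNA. Eif2ak2 in NUP98-DDX10 had 578, 654, 809 and 571 untreated, 507, 584 and 491 on day 3 and 524, 473 and 578 on day 5. Eif2ak2 in NUP98-JARID1A had 1008, 1020, 749 and 876 untreated, 474, 488 and 451 on day 3 and 794, 602 and 534 on day 5. Eif2ak2 in NUP98-NSD1 had 1367, 901, 1012 and 1193 untreated, 934, 858 and 783 on day 3 and 663, 962 and 1085 on day 5. It fell in NUP98-JARID1A on both days, at -0.94 ± 0.17 (adjusted p = 0.000343) and -0.52 ± 0.17 (adjusted p = 0.0188); the day 3 call held whichever library was left out. Rsad2 (viperin), which makes a nucleotide that ends viral RNA chains, averaged 23.8 ± 4.89 normalized counts on day 5 and 74.3 ± 15.4 in untreated NUP98-DDX10 (SD, n = 3 and 4), a change of -1.60 ± 0.51 (adjusted p = 0.0325). Isg20, an RNA exonuclease, fell in NUP98-JARID1A on day 3 (-0.92 ± 0.26, adjusted p = 0.0162), and Cmpk2, a mitochondrial nucleotide kinase, passed in no fusion.

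Of the 9 tested membrane, secreted and other members, 7 fell in NUP98-DDX10 on day 5, where 8.64% of all features fell. In NUP98-JARID1A 3 fell on day 3 (all features 7.62%), and Samd9l, Slfn5 and Ifi27l2a rose in NUP98-NSD1 on day 5 (all features 13.5%). Lgals3bp, a secreted glycoprotein that binds galectins, was the only member that fell in all 3 fusions on day 5. Lgals3bp in NUP98-DDX10 had 1716, 1387, 1241 and 1581 untreated, 742, 955 and 708 on day 3 and 664, 574 and 428 on day 5. Lgals3bp in NUP98-JARID1A had 2416, 1815, 2329 and 2693 untreated, 1432, 1130 and 1252 on day 3 and 576, 1039 and 1688 on day 5. Lgals3bp in NUP98-NSD1 had 2345, 2103, 2132 and 2644 untreated, 1588, 1550 and 1101 on day 3 and 658, 1336 and 1733 on day 5. Both days lay below every untreated library in every fusion. The day 5 changes were -1.43 ± 0.27 in NUP98-DDX10 (adjusted p = 0.000686, limma), -1.19 ± 0.27 in NUP98-JARID1A (adjusted p = 0.000915) and -0.997 ± 0.27 in NUP98-NSD1 (adjusted p = 0.00748; without replicate 1 -0.59 ± 0.27, adjusted p = 0.118). The responses did not pass the test of a difference (adjusted p = 0.673).

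Samd9l was the only member above 0 in all 3 fusions on day 5. It restrains translation and growth, and in humans germline changes in it predispose to marrow failure and myeloid disease. Samd9l in NUP98-DDX10 had 275, 235, 401 and 321 untreated, 217, 243 and 307 on day 3 and 360.1, 322 and 399.6 on day 5. Samd9l in NUP98-JARID1A had 826, 739.6, 523 and 566 untreated, 292, 670.0 and 478 on day 3 and 1443, 1054 and 988 on day 5. Samd9l in NUP98-NSD1 had 369.5, 178, 269.7 and 371 untreated, 824, 619 and 454 on day 3 and 661, 1765 and 1802 on day 5. In NUP98-NSD1 both days lay above every untreated library, in NUP98-JARID1A day 5 did, and in NUP98-DDX10 both days overlapped. Samd9l rose in NUP98-NSD1 by 1.10 ± 0.32 on day 3 (adjusted p = 0.0265, limma) and 2.16 ± 0.32 on day 5 (adjusted p = 7.34e-06; 2.64 ± 0.31 without replicate 1), and in NUP98-JARID1A by 0.81 ± 0.32 on day 5 (adjusted p = 0.041). With the replicate number as a block the NUP98-JARID1A value was 0.83 and did not pass (adjusted p = 0.0594). The responses of the fusions differed on both days (adjusted p = 0.04 on day 3 and 0.00617 on day 5).

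Rtp4, Slfn5 and Ifi27l2a separated NUP98-DDX10 from the other fusions. Rtp4, a chaperone that carries receptors to the cell surface, had the lowest day 5 log2 fold change of the 39 members in NUP98-DDX10. Rtp4 in NUP98-DDX10 had 111, 122, 108 and 89.9 untreated, 28, 46.7 and 29.1 on day 3 and 13.2, 28 and 17 on day 5. Rtp4 in NUP98-JARID1A had 694, 381, 295 and 454 untreated, 74.8, 189 and 140.5 on day 3 and 435, 445 and 609 on day 5. Rtp4 in NUP98-NSD1 had 122, 48.8, 60.7 and 115 untreated, 104, 108 and 55.2 on day 3 and 34.4, 462 and 416 on day 5. The NUP98-DDX10 change on day 5 was -2.47 ± 0.56 (adjusted p = 0.00322, limma). In NUP98-JARID1A it fell on day 3 (-1.78 ± 0.56, adjusted p = 0.0296) and overlapped the untreated libraries on day 5. In NUP98-NSD1 replicates 2 and 3 of day 5 were above every untreated library and replicate 1 below them, so that the value was 1.22 ± 0.56 with it (adjusted p = 0.116) and 2.43 ± 0.41 without it (adjusted p = 7.06e-05). The responses differed on day 5 (adjusted p = 0.0028).

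Slfn5 belongs to the Schlafen family of growth regulators. Slfn5 in NUP98-DDX10 had 553, 404, 666 and 544 untreated, 286, 337 and 277 on day 3 and 240.4, 248 and 261 on day 5. Slfn5 in NUP98-JARID1A had 688, 572, 441 and 554 untreated, 147, 326 and 268 on day 3 and 684, 783 and 886 on day 5. Slfn5 in NUP98-NSD1 had 845, 356, 481 and 593 untreated, 635, 813 and 493 on day 3 and 569, 1845 and 2014 on day 5. In NUP98-DDX10 both days were below the untreated libraries, with a day 5 change of -1.09 ± 0.33 (adjusted p = 0.0229, limma). In NUP98-JARID1A it fell on day 3 (-1.25 ± 0.33, adjusted p = 0.00875), and in NUP98-NSD1 it rose on day 5 (1.24 ± 0.33, adjusted p = 0.00533; 1.83 ± 0.29 without replicate 1). Ifi27l2a encodes a small hydrophobic protein. Ifi27l2a in NUP98-DDX10 had 251, 219.8, 288 and 325 untreated, 102, 166 and 97.8 on day 3 and 76.8, 78.5 and 95.2 on day 5. Ifi27l2a in NUP98-JARID1A had 439, 297, 279.6 and 312 untreated, 174, 332 and 245 on day 3 and 398, 494 and 457 on day 5. Ifi27l2a in NUP98-NSD1 had 564, 282, 450.2 and 600.5 untreated, 754, 598 and 489.9 on day 3 and 324, 1738 and 1370 on day 5. It fell in NUP98-DDX10 on day 5 (-1.68 ± 0.36, adjusted p = 0.00198) and rose in NUP98-NSD1 (1.01 ± 0.36, adjusted p = 0.039; 1.76 ± 0.28 without replicate 1), where replicates 2 and 3 lay far above every untreated library and replicate 1 among them. The day 5 responses differed for Slfn5 (adjusted p = 0.00143) and Ifi27l2a (adjusted p = 0.000617).

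Trim30a, a tripartite motif protein that restrains signalling to NF-kappaB in mice, fell in NUP98-DDX10 and passed in neither of the other fusions. Trim30a in NUP98-DDX10 had 1574, 1420, 1809 and 1439 untreated, 1036, 1255 and 1102 on day 3 and 955, 828 and 994 on day 5. Trim30a in NUP98-JARID1A had 1929, 1609, 1171 and 1530 untreated, 883, 1198 and 1215 on day 3 and 2124, 1635 and 1466 on day 5. Trim30a in NUP98-NSD1 had 3002, 1859, 2268 and 2765 untreated, 2136, 2089 and 1734 on day 3 and 1094, 3066 and 2793 on day 5. Both days lay below every untreated library in NUP98-DDX10, with a day 5 change of -0.75 ± 0.25 (adjusted p = 0.038, limma), and overlapped them in NUP98-JARID1A and NUP98-NSD1; that the fusions differ on day 5 was not shown with all libraries (adjusted p = 0.121). Without replicate 1 of NUP98-NSD1 it passed (adjusted p = 0.00799), with NUP98-NSD1 above NUP98-DDX10 by 1.02 ± 0.28 (adjusted p = 0.0151). Bst2 (tetherin), which holds virus particles at the cell surface, and Xaf1, an activator of cell death, also fell in NUP98-DDX10 on day 5 (-0.72 ± 0.20, adjusted p = 0.0137, and -0.98 ± 0.32, adjusted p = 0.0358). Ifi35 passed in no fusion on either day, as did Cmpk2, Gbp2, Herc6, Ifit3, Isg15 and Mx1. Among these 7 the lowest day 5 value in NUP98-DDX10 was that of Ifit3, -1.12 ± 0.58 (adjusted p = 0.2).

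Members with the ISRE letters shown above and members without them both had medians below 0 in NUP98-DDX10. On day 5 the median log2 fold change was -0.97 for the 15 tested members with the letters, of which 10 fell, and -0.52 for the 14 with a window and no letters, of which 6 fell. Of all features 8.64% fell in that comparison. In NUP98-JARID1A the medians were 0.16 and 0.07, and in NUP98-NSD1 -0.22 and -0.09. The NUP98-NSD1 medians became 0.64 and 0.38 when replicate 1 of day 5 was left out. The difference between the 2 sets was not tested. Samd9l, Trex1 and Lgals3bp, named here after their values were seen, had windows without the letters.

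Without doxycycline, most members were lower in the cells of each fusion than in the controls. The 3 comparisons share the same 3 control libraries. In untreated NUP98-DDX10 29 of 39 members were lower and 2 higher than in controls, where 37.9% and 30.6% of all features were, and the median log2 fold change was -1.39 against -0.11 over all features. In untreated NUP98-JARID1A 24 were lower and 2 higher (background 38.0% and 31.4%), with a median of -0.98, and in untreated NUP98-NSD1 25 and 2 (background 34.9% and 29.7%), with a median of -0.97. All untreated libraries lay below all controls for 30 members of NUP98-DDX10, 25 of NUP98-JARID1A and 23 of NUP98-NSD1, against 33.4%, 30.9% and 30.9% of all features. The controls also differed in sums of cell type markers. B cell markers summed to at most 2401 normalized counts in any library of a fusion, against 19080 to 88260 in controls, T and NK cell markers to at most 952, against 2439 to 5708, and erythroid markers to at most 209.3, against 2710 to 21290. Mature neutrophil markers summed to 146100 to 1692000 in controls. The part of these cells in the difference was not tested, and genotype and cell mixture cannot be told apart for the controls.

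Rsad2 was the most lowered member, at -5.27 ± 0.51 in NUP98-DDX10 (adjusted p = 6.41e-10, limma), -4.25 ± 0.51 in NUP98-JARID1A and -4.85 ± 0.51 in NUP98-NSD1, with 51.6 to 175 normalized counts over the 12 untreated libraries against 2422, 1537 and 6306 in the controls. Samd9l was at -4.35 ± 0.32, -3.24 ± 0.32 and -4.43 ± 0.32 in the same order of fusions; it had 178 to 826 untreated, against 7925, 6846 and 4315. Rtp4 had 48.8 to 694 normalized counts over the 12 untreated fusion libraries, against 3274, 1830 and 1301 in the controls. Isg15 had 11.6 to 98.4 normalized counts over the 12 untreated fusion libraries, against 225, 142 and 620.5 in the controls. These 4 genes did not overlap between the 2 sets of libraries, and Isg15 was lower in each fusion (-4.18 ± 0.54, -2.53 ± 0.54 and -2.004 ± 0.54). Ifit1 had 22.3 to 115 untreated, against 557, 217 and 310.2 in the controls. Ifi27l2a had 219.8 to 600.5 untreated, against 1948, 1273 and 1440 in the controls. Slfn5 had 356 to 845 untreated, against 2677, 1440 and 2068 in the controls. These 3 were likewise lower in each fusion, with no overlap.

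Irf7, the amplifying factor, had 627 to 1190 normalized counts in the untreated fusion libraries, against 2953, 2031 and 1969 in the controls. Irf9 had 978 to 1431 untreated, against 1926, 1725 and 2517 in the controls. Both were lower in every fusion, Irf7 at -1.61 ± 0.33 in NUP98-DDX10 (adjusted p = 9.01e-05, limma) and Irf9 at -0.72 ± 0.20 (adjusted p = 0.0021). Stat2 had 816 to 1295 untreated, against 1414, 1125 and 1826 in the controls. Ifih1 had 504 to 811 untreated, against 996, 694 and 524 in the controls. Stat2 was lower in NUP98-DDX10 and NUP98-NSD1, and Ifih1 passed in no fusion. Zbp1 had 336 to 1342 untreated, against 1435, 1097 and 993 in the controls. Usp18 had 116 to 406 untreated, against 519, 306 and 375 in the controls. Herc6 had 89.7 to 216 untreated, against 428, 259 and 479 in the controls. Zbp1 was lower in NUP98-DDX10 only, Usp18 in NUP98-DDX10 and NUP98-JARID1A, and Herc6 in all 3, and the libraries overlapped the controls in the fusions where Zbp1, Usp18 or Ifih1 did not pass.

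Among the abundant enzymes, Oasl2 had 383 to 1340 untreated, against 4691, 3288 and 1035 in the controls. Oas3 had 294 to 1056 untreated, against 2723, 2071 and 1076 in the controls. Control replicate 3 held less of both than the other controls. Ifit2 had 178 to 359 untreated, against 582, 366 and 436 in the controls. Eif2ak2 had 571 to 1367 untreated, against 1933, 1465 and 1206 in the controls. Trim30a had 1171 to 3002 untreated, against 5759, 4186 and 3254 in the controls. These 5 were lower in all 3 fusions. Parp14 had 597 to 1824 untreated, against 1717, 1402 and 2278 in the controls. Dtx3l had 1438 to 2431 untreated, against 1793, 1397 and 1695 in the controls. Parp14 was lower in NUP98-DDX10 only (-1.39 ± 0.19, adjusted p = 4.52e-07, limma), and Dtx3l passed in no fusion. Gbp2 had 109.6 to 1744 untreated, against 447, 353 and 283 in the controls. Gbp2 passed in no fusion.

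The remaining 3 named members had log2 fold changes above 0 in every fusion. Lgals3bp had 1241 to 2693 untreated, against 973, 742 and 1172 in the controls; it was higher in every fusion, by 0.64 ± 0.27 in NUP98-DDX10 (adjusted p = 0.041, limma), 1.27 ± 0.27 in NUP98-JARID1A and 1.28 ± 0.27 in NUP98-NSD1. Trex1 had 1418 to 2766 untreated, against 1540, 1265 and 1161 in the controls; it was higher in NUP98-DDX10 (0.78 ± 0.19, adjusted p = 0.000634) and NUP98-JARID1A (0.44 ± 0.19, adjusted p = 0.0404). Gbp3 had 419 to 1619 untreated, against 419, 327 and 541 in the controls; it was higher in NUP98-NSD1 (1.69 ± 0.28, adjusted p = 6.06e-06).

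**Figure D5:**
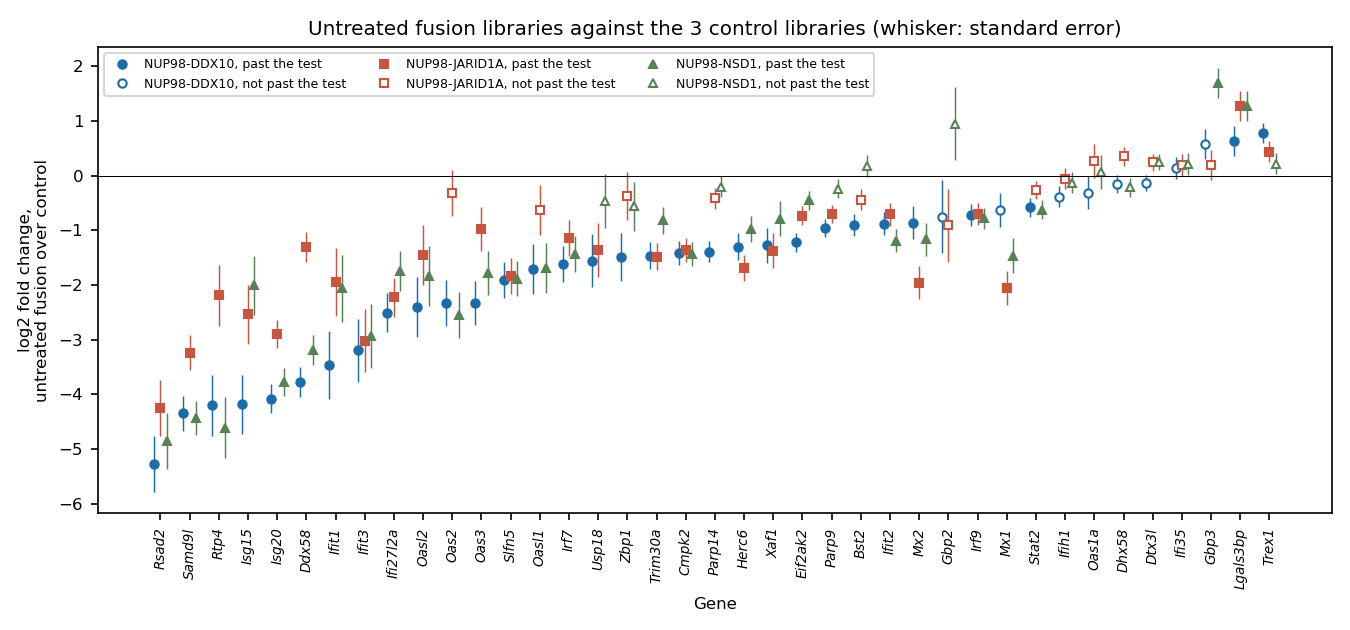
Log2 fold change of untreated cells of each fusion over controls for the 39 members, with SE. Most points lie below 0; Lgals3bp lies above 0 in all 3 fusions, Trex1 passes in NUP98-DDX10 and NUP98-JARID1A and Gbp3 in NUP98-NSD1.

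The untreated cells of the 3 fusions differed among themselves in 24 of 39 members (limma F-test), below the 69.8% of all features that did. NUP98-JARID1A was higher than NUP98-DDX10 for 16 and lower for 2 (background 21.6% and 20.1%), and NUP98-NSD1 higher than NUP98-DDX10 for 11 and lower for 2 (background 21.2% and 20.7%). Between NUP98-JARID1A and NUP98-NSD1 the split was 8 higher and 7 lower (background 29.3% and 29.3%). The NUP98-NSD1 count against NUP98-DDX10 was 8 without untreated replicate 2 of NUP98-DDX10, untreated replicate 3 of NUP98-NSD1 or the untreated NUP98-NSD1 library titled day 3. Ddx58 had the highest log2 difference of NUP98-JARID1A over NUP98-DDX10, with 824 ± 92.2 normalized counts in NUP98-JARID1A, 225 ± 49.1 in NUP98-NSD1 and 148 ± 13.2 in NUP98-DDX10 (SD, n = 4 each), and it was higher in NUP98-JARID1A than in NUP98-DDX10 by 2.47 ± 0.26 (adjusted p = 1.27e-08). Mx1 and Mx2 were the 2 members lower in NUP98-JARID1A than in NUP98-DDX10, and Mx1 and Trex1 the 2 lower in NUP98-NSD1 than in NUP98-DDX10.

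The ligands were hardly read. Of 12 interferon genes, 8 had 0 reads in every library, Ifna2 had 1 read and Ifnb1 8 reads over all 33 libraries. Ifng, the product of T and NK cells, had 52 reads, all in the controls, and Ifnk had 46 reads, of which 43 were outside the controls. At these depths, whether interferon transcripts changed on doxycycline was not detectable.

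Receptors, kinases and regulators of the pathway make up the next list. Of 15 signalling genes tested, on day 5 2 rose and 2 fell in NUP98-DDX10, 10 rose and none fell in NUP98-JARID1A, and 7 rose and 1 fell in NUP98-NSD1, with medians of -0.03, 0.40 and 0.37; all features stood at 6.49% and 8.64% in NUP98-DDX10, 20.1% and 21.2% in NUP98-JARID1A, and 13.5% and 11.9% in NUP98-NSD1 (share that rose and share that fell). Averaged over the fusions, the smallest adjusted p among those that rose were those of Irf5, a factor of myeloid cells (1.10 ± 0.14, adjusted p = 1.7e-07, limma), the receptor kinase Jak1 (0.38 ± 0.05, adjusted p = 7.49e-07), the feedback inhibitor Socs3 (1.62 ± 0.24, adjusted p = 3.06e-06) and the interferon gamma receptor chain Ifngr2 (0.55 ± 0.09, adjusted p = 7.5e-06). Il10rb, a receptor chain shared by lambda interferons, fell (-0.19 ± 0.05, adjusted p = 0.0011). The fusions differed for 8 of the 15, against 26.0% of all features, first Il10rb (adjusted p = 1.61e-07), the type I receptor chain Ifnar1 (0.00169), Irf8 (0.00189) and Ifngr2 (0.00199).

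Of 12 sensing receptors and adaptors, 2 rose and 1 fell in NUP98-DDX10 on day 5 (all features 6.49% and 8.64%), 5 rose and 1 fell in NUP98-JARID1A (all features 20.1% and 21.2%), and 2 rose and none fell in NUP98-NSD1 (all features 13.5% and 11.9%). Without replicate 1 of NUP98-NSD1 on day 5, 5 rose in NUP98-NSD1 (all features 12.4%). Over the fusions the adaptor Myd88 (0.54 ± 0.07, adjusted p = 1.04e-06, limma), the kinase Ikbke (0.74 ± 0.11, adjusted p = 2.63e-06), the RNA receptor Tlr7 (0.52 ± 0.10, adjusted p = 6.17e-05) and Unc93b1, which carries such receptors to endosomes (0.33 ± 0.09, adjusted p = 0.00347), rose. The DNA sensor Mb21d1 (cGAS; -0.40 ± 0.12, adjusted p = 0.00663) and its adaptor Tmem173 (STING; -0.35 ± 0.12, adjusted p = 0.0221) fell. The fusions differed for 6 of the 12, against 26.0% of all features, first Mb21d1 (adjusted p = 0.00437), Tlr9 (0.00758), Unc93b1 (0.0101) and Myd88 (0.013).

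Another list of 39 interferon-induced genes, none of them a member, gives the rest of the response. On day 3 none passed in NUP98-DDX10 (limma; 14 at an unadjusted p under 0.05, against 11.9% of all features; median -0.44), 1 rose and 11 fell in NUP98-JARID1A (median -0.54), and 1 rose and 1 fell in NUP98-NSD1 (median -0.24). Of all features on day 3, 8.1% rose and 7.62% fell in NUP98-JARID1A, and 4.55% rose and 4.59% fell in NUP98-NSD1. On day 5 13 fell and none rose in NUP98-DDX10 (median -0.52), 7 rose and 5 fell in NUP98-JARID1A (median -0.01), and 7 rose and 6 fell in NUP98-NSD1 (median -0.11). The 12 called in NUP98-JARID1A were a smaller share than that of all features in the same comparison (20.1% rose and 21.2% fell); in NUP98-NSD1 all features stood at 13.5% and 11.9%, and in NUP98-DDX10 8.64% fell. Without replicate 1 of NUP98-NSD1 on day 5, 12 rose and 1 fell in NUP98-NSD1 (median 0.20), where 12.4% of all features rose and 10.2% fell. Over the fusions on day 5 the genes of antigen processing Psmb9 (-0.84 ± 0.11, adjusted p = 2.72e-07), Tap1 (-0.92 ± 0.13, adjusted p = 2.6e-06) and Nlrc5, their transcriptional activator (-0.94 ± 0.19, adjusted p = 0.000196), fell, as did Uba7, the enzyme that activates Isg15 (-0.75 ± 0.13, adjusted p = 2.59e-05). Ifi30, a lysosomal reductase of antigen-presenting cells (1.20 ± 0.09, adjusted p = 5.19e-11), Tdrd7 (0.55 ± 0.08, adjusted p = 1.87e-06), Parp12 (0.72 ± 0.12, adjusted p = 1.3e-05) and the membrane protein Ifitm3 (0.75 ± 0.17, adjusted p = 0.000693) rose. The fusions differed on day 5 for 7 of these 39, below the 26.0% of all features, and for 19 without replicate 1 of NUP98-NSD1 (all features 27.3%); with all libraries the first were Ifi30 (adjusted p = 1.48e-05), Ifi204 (0.00218), Phf11b (0.00519) and Ifi203 (0.00532). Lists and members were both named with earlier results of these data known, so neither supports the other.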

How the data were processed

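Gene expression was measured by stranded poly-A RNA sequencing in 33 libraries of 10 groups. The deposited table holds signal values, here normalized counts, meaning reads divided by 1 size factor per library. The submitters' processing notes list STAR, featureCounts and DESeq2 among the tools and GRCm38 and mm10 as builds, with no versions, roles or order; strand use in counting is not given in the sources used here. Dividing each library by its smallest step gave whole reads for 100.0% of values (tolerance 0.01 reads, largest deviation 3.8e-09), which served the count tests among the alternatives; they summed to 12043487 to 28903870 per library. Because the deposited values are normalized, the main test was limma 3.58.1 (R 4.3.3) with a mean-variance trend on log2(value + 1), 10 group means and 33 libraries, on the 12687 features with at least 10 in 3 or more libraries, with Benjamini-Hochberg adjusted p under 0.05 over all of them (median 27.3 degrees of freedom). Fold changes on this scale understate changes of low genes. Differences between fusions were F-tests of the fusion by doxycycline term. The script was tested on simulated counts. Alternatives were pseudocounts of 0.5 and 5, no filter, a filter of 50, TMM and quantile scaling, edgeR 4.0.16 and DESeq2 1.42.0, other sets of libraries, a replicate block, and each library left out. Values by library are given for Irf7, Irf9, Stat2, Ifih1, Isg15, Usp18, the 2 most abundant members of each role group, and the 6 members with the smallest p of the day 5 difference between fusions; other members and list genes are named as examples or by smallest adjusted p. Members, lists and rules were chosen with earlier results of these data known. Promoter sequences and gene positions came from RefSeq (GRCm38.p6). Genes of near-identical families (Ifit, Oas, Gbp, Mx) can share reads, which leaves their split uncertain. For NUP98-JARID1A on day 5 each of the 3 libraries correlated with the untreated library of the same number (r = 0.403 to 0.629 over 5000 genes). Its day 5 replicate 3 correlated more with untreated replicate 2 (r = 0.83), so the numbers were not shown to be pairs. The main fit had no block, and the block is given where it changes a call. No 2 libraries of a group held the same reads (chi-square per degree of freedom 6.62 to 361).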

Additional observations from a re-analysis of the deposited data

Results flagged for a closer look

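Ifit1 in untreated NUP98-JARID1A had 1 library far from its group: 42.8 normalized counts in replicate 2, against 103 to 115 in the other 3. It was the only 1 of 117 sets of 4 untreated values (39 members, 3 fusions) whose lowest or highest library passed Dixon's 95% limit; chance alone marks about 1 set in 20.

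The response of Samd9l differed between the fusions on day 3 (adjusted p = 0.04, limma F-test), with -0.25 for NUP98-DDX10, -0.52 for NUP98-JARID1A and 1.10 for NUP98-NSD1 on the log2 scale. Samd9l was the only member that passed on day 3, where 7.08% of all features did. The call was lost in several fits with 1 library left out.

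On day 5 the response differed between the fusions for 12 of 39 members, close to the 26.0% of all features that passed the same test. For Ifi27l2a (adjusted p = 0.000617), Slfn5 (0.00143), Rtp4 (0.0028), Irf9 (0.00291), Irf7 (0.00683), Ddx58 (0.00799), Oas3 (0.0316), Oas1a (0.0319) and Oas2 (0.0341), NUP98-DDX10 fell and had the lowest of the 3 values. For Trex1 (0.00123) and Samd9l (0.00617), NUP98-JARID1A and NUP98-NSD1 rose and NUP98-DDX10 did not pass. For Ifit2 (0.0461), NUP98-JARID1A fell and the other two did not pass. Leaving out 1 library at a time, 8 of the 12 kept the call each time. The sums of monocyte and neutrophil markers in the same libraries are given in the report; their part was not tested.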

How the results depend on the processing

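No alternative reversed a member call: of 3401 values of 310 calls under other settings 3200 stayed past the threshold and 201 did not, and of 10230 values with 1 library left out 9569 did and 661 did not. The cause of the shifts below was not tested. Counts of called members that moved by over 1.5 times were as follows. On day 3, NUP98-DDX10 (3) gave 1 with no filter, quantile scaling, edgeR or only the untreated libraries titled day 5, 9 with DESeq2 and 25 with only its own libraries; NUP98-JARID1A (11) gave 4, NUP98-NSD1 (5) gave 2, the mean (27) gave 17 and the F-test (1) gave 0 with the untreated libraries titled day 5; NUP98-NSD1 gave 0 with only its own libraries; the F-test gave 0 with no filter or the replicate block and 2 with DESeq2. On day 5, the untreated libraries titled day 5 gave 13 for NUP98-DDX10 (22) and 3 for NUP98-JARID1A (5); NUP98-NSD1 (7) gave 11 with DESeq2 and 3 with only its own libraries; NUP98-NSD1 against NUP98-DDX10 (9) gave 17 with DESeq2; NUP98-JARID1A against NUP98-NSD1 (2) gave 1 with a pseudocount of 0.5 or quantile scaling and 0 with no filter, TMM, the untreated libraries titled day 5 or the replicate block. From day 3 to day 5, NUP98-DDX10 (0) gave 1 with only its own libraries, NUP98-JARID1A (15) gave 9 with quantile scaling, NUP98-NSD1 (1) gave 0 with no filter, TMM, only its own libraries or the replicate block, 4 with edgeR and 6 with DESeq2, and the F-test (0) gave 2 with DESeq2 and 1 with only the libraries compared. In untreated cells, NUP98-JARID1A against NUP98-DDX10 (18) gave 11 and NUP98-NSD1 against NUP98-DDX10 (13) gave 7 with the untreated libraries titled day 5.

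Leaving out 1 library at a time, the counts ran as follows. On day 3 they ran from 0 to 13 for NUP98-DDX10, 3 to 21 for NUP98-JARID1A, 2 to 7 for NUP98-NSD1, 22 to 31 for the mean and 0 to 5 for the F-test. On day 5 they ran from 10 to 25 for NUP98-DDX10, 1 to 7 for NUP98-JARID1A, 6 to 11 for NUP98-NSD1, 11 to 21 for the mean, 8 to 22 for the F-test, 7 to 17 for NUP98-JARID1A against NUP98-DDX10, 5 to 23 for NUP98-NSD1 against NUP98-DDX10 and 0 to 7 for NUP98-JARID1A against NUP98-NSD1. From day 3 to day 5 they were 0 throughout in NUP98-DDX10 and ran from 3 to 20 in NUP98-JARID1A, 0 to 17 in NUP98-NSD1, 6 to 22 for the mean and 0 to 11 for the F-test. Against controls they ran from 29 to 34 for NUP98-DDX10, 22 to 30 for NUP98-JARID1A and 24 to 28 for NUP98-NSD1, and among untreated cells from 19 to 31 for the F-test, 12 to 22 for NUP98-JARID1A against NUP98-DDX10, 8 to 17 for NUP98-NSD1 against NUP98-DDX10 and 13 to 20 for NUP98-JARID1A against NUP98-NSD1. The replicate numbers were not shown to pair the libraries. Outside NUP98-JARID1A on day 5, 2 of the 15 same-numbered pairs had a correlation over 0.1 (5000 genes, range -0.63 to 0.396). With the replicate block 5 members passed in NUP98-JARID1A on day 5, as without it, with Bst2 (lower) in place of Samd9l. With 3 or 4 libraries a group, small changes of lowly read members such as Isg15 were not detectable.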
